A study of Homo sapiens with 21 samples.

Results

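The core spliceosome genes examined here are 59 genes that encode proteins of the U snRNPs (small nuclear ribonucleoprotein particles), the SF3 and U2AF factors, the PRPF proteins, the LSM ring and the RNA helicases of the major spliceosome. They were listed by symbol, with no threshold on their values, and were looked up among the 60668 gene identifiers of 2 tables of RNA-seq counts. All 59 were found in both tables and all 59 passed the filter on low counts in both. The cells were HCC1806, an established human cell line from a triple-negative breast tumour, and were grown as adherent cultures. The series title names the joint overexpression of the splicing factor genes SRSF2, SRSF3 and SRSF7, and that of MYC, in such cells. The first table held 3 libraries of control cells labelled 3XCTL, 3 labelled 3xSR and 3 labelled MYC-OE. The second held 3 libraries of a single plasmid control labelled 1xCtrl and 3 each labelled SRSF2 OE, SRSF3 OE and SRSF7 OE. The labels give no promoter, vector or clone for any line, and whether MYC-OE and 3XCTL carry matching plasmids is not given there.

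The spliceosome removes introns from pre-mRNA. U1 snRNP binds the 5' splice site, SF1 and the U2AF pair mark the branch point and the 3' splice site, U2 snRNP then joins through its SF3A and SF3B proteins, and the U4/U6.U5 tri-snRNP brings in the catalytic RNAs, which helicases and the PRPF19 complex remodel into the active site. A ring of Sm proteins sits on the U1, U2, U4 and U5 RNAs and a related ring of LSM proteins on U6. SRSF2, SRSF3 and SRSF7 are SR proteins, which bind exons and help these particles find splice sites, and MYC is a transcription factor known to raise genes of splicing proteins in several cancers.

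Libraries held between 143269192 and 303323552 counts, so that 3 counts, the detection floor used, were at most 0.0209 CPM (counts relative to library size, scaled by the trimmed mean of M values, TMM, within each table), which covers counting error only. The epithelial and basal genes EPCAM, KRT5 and EGFR were at or above 517 CPM in every library, PGR was at or under 1.46 CPM, ERBB2 lay between 99.6 and 184 CPM, and the leukocyte gene PTPRC and the endothelial gene PECAM1 were at or under 0.539 CPM. SRSF2 did not rise in the libraries labelled 3xSR, at 373, 397 and 387 CPM against 395, 424 and 391 in 3XCTL, nor in those labelled SRSF2 OE, at 376, 407 and 413 CPM against 442, 414 and 476 in 1xCtrl. The log2 fold changes of SRSF2 were -0.06 (edgeR adjusted p = 0.389) and -0.16 (edgeR adjusted p = 0.0980). SRSF3 rose by 0.31 and SRSF7 by 0.44 in the libraries labelled 3xSR, SRSF3 by 0.49 in SRSF3 OE, SRSF7 by 0.26 in SRSF7 OE and MYC by 0.90 in MYC-OE. MYC also rose by 0.75 in the libraries labelled 3xSR. No 2 replicates of a group agreed within sampling noise: over genes, the chi-square divided by its degrees of freedom ran from 17.1 to 302. The highest values were those of 1xCtrl replicate 2 and, in the first table, of 3XCTL replicate 2. These libraries also stood apart from their partners in the slope of log2 CPM on transcript GC content. It was 0.28 per 10 percentage points in 1xCtrl replicate 2 against -0.08 and -0.18 in the other 1xCtrl libraries. It was -0.13 in 3XCTL replicate 2 against 0.11 and 0.11 in its partners. Counts of calls are therefore given with and without 1xCtrl replicate 2 and 3XCTL replicate 2. The slope also went with the group in the first table, at -0.16, -0.07 and -0.12 in the libraries labelled 3xSR and 0.07, 0.07 and 0.13 in MYC-OE. In the second table the slopes were -0.14, -0.07 and -0.06 in SRSF3 OE and 0.04, 0.0024 and 0.05 in libraries labelled SRSF2 OE, without overlap. In SRSF7 OE they were 0.09, -0.03 and 0.13. Nothing in the labels says that replicates came from separate cultures, so p-values measure the spread between these libraries, which may be technical. In bulk RNA, fewer cells with a transcript and less of it per cell cannot be told apart.

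Each line was set against its own control with edgeR's quasi-likelihood test over all genes, and a gene was called at an adjusted p under 0.05. Among libraries labelled SRSF2 OE, 31 of the 59 genes rose and 1 fell, where 11.6% of the 24362 genes tested rose and 11.9% fell. In SRSF3 OE 35 rose and 0 fell, against 15% and 14.1% of all genes. DESeq2 and limma-voom also called 0 lower there, and 0 of 59 were lower at an unadjusted p under 0.05 in edgeR. In SRSF7 OE 21 rose and 3 fell, against 9.03% and 8.26%. The members' shares called higher were 52.5%, 59.3% and 35.6%, above those of all genes and of genes in the members' range of CPM, of which 19.3%, 31.2% and 14.4% rose. These 3 comparisons share the 1xCtrl libraries. In MYC-OE 14 rose and 9 fell, against 18% and 17.3% of the 23160 genes tested, and in the libraries labelled 3xSR 3 rose and 8 fell, against 15.3% and 13.7%. Of the 59, that was 23.7% higher and 15.3% lower in MYC-OE, beside 21% and 24.6% of genes in the members' range of CPM, and for the libraries labelled 3xSR 5.08% rose and 13.6% fell, beside 19.8% and 18.1%. The members' shares in MYC-OE were thus close to the background among higher genes and at or under it among lower ones, and in the libraries labelled 3xSR under it among higher genes and close to it among lower ones. Both share the 3XCTL libraries.

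The median log2 fold change of the 59 genes was 0.25 in libraries labelled SRSF2 OE, 0.27 in SRSF3 OE, with 0.14 in SRSF7 OE, beside -0.01, -0.03 and -0.0048 over all genes tested and 0.01, 0.10 and 0.02 over genes in the members' range of CPM. It was 0.02 in MYC-OE and 0.0011 in the libraries labelled 3xSR, where genes of that range had -0.02 and 0.0012. With scaling by total counts the members' medians were 0.19 in libraries labelled SRSF2 OE, 0.16 in SRSF3 OE, with 0.13 in SRSF7 OE. The called changes were small. Over the 125 calls of a member against a control, the absolute log2 fold change ran from 0.15 to 0.69 with a median of 0.31. Without 1xCtrl replicate 2 the counts were 37 higher and 2 lower in libraries labelled SRSF2 OE, 39 and 0 in SRSF3 OE, with 30 and 6 in SRSF7 OE. Over all genes, higher calls in these lines went from 2823 to 3640, 3666 to 4094 and 2201 to 4110. Lower calls went from 2910 to 3905, 3442 to 3970 and 2013 to 3211. Other libraries counted too, since in libraries labelled SRSF2 OE 18 rose without 1xCtrl replicate 1 and 16 without SRSF2 OE replicate 1, and 8 rose in MYC-OE without its replicate 3. All genes called higher numbered 1767, 1886 and 3488 there. Without 3XCTL replicate 2 the members called were 20 higher and 12 lower in MYC-OE and 13 and 16 in the libraries labelled 3xSR, which moved most. All genes called higher and lower went from 4173 and 4009 to 4643 and 4366 in MYC-OE. They went from 3543 and 3184 to 4637 and 4567 in the libraries labelled 3xSR. After removal of each library's GC trend, an alternative added after seeing the data, MYC-OE had 23 higher and 13 lower members and the libraries labelled 3xSR had 8 and 9. All genes called were then 5280 higher and 4772 lower in MYC-OE and 4055 and 3664 in the libraries labelled 3xSR. These gains in calls were thus seen over all genes as well as over the members.

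Members whose 3 libraries all lay above or all below the 3 of the control, with no overlap in CPM, were counted as well, beside the share of all genes that did so. Among libraries labelled SRSF2 OE there were 34 above and 2 below (all genes 18% and 17.9%). SRSF3 OE had 37 above and 0 below (all genes 20.6% and 19.2%) and SRSF7 OE 24 above and 5 below (all genes 16.3% and 16.3%). MYC-OE had 18 above and 13 below (all genes 24.2% and 24.2%) and the libraries labelled 3xSR 7 above and 10 below (all genes 21.3% and 18.9%). Between lines, MYC-OE against 3xSR had 25 above and 17 below (all genes 27.1% and 26.1%). SRSF3 OE against libraries labelled SRSF2 OE had 19 above and 8 below (all genes 24.1% and 23.6%), SRSF7 OE against the latter 6 above and 22 below (all genes 23.9% and 22.1%), and SRSF7 OE against SRSF3 OE 11 above and 29 below (all genes 26.7% and 25.9%). In each comparison with 1xCtrl most of the members that did not overlap were above the control.

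**Figure D1:**
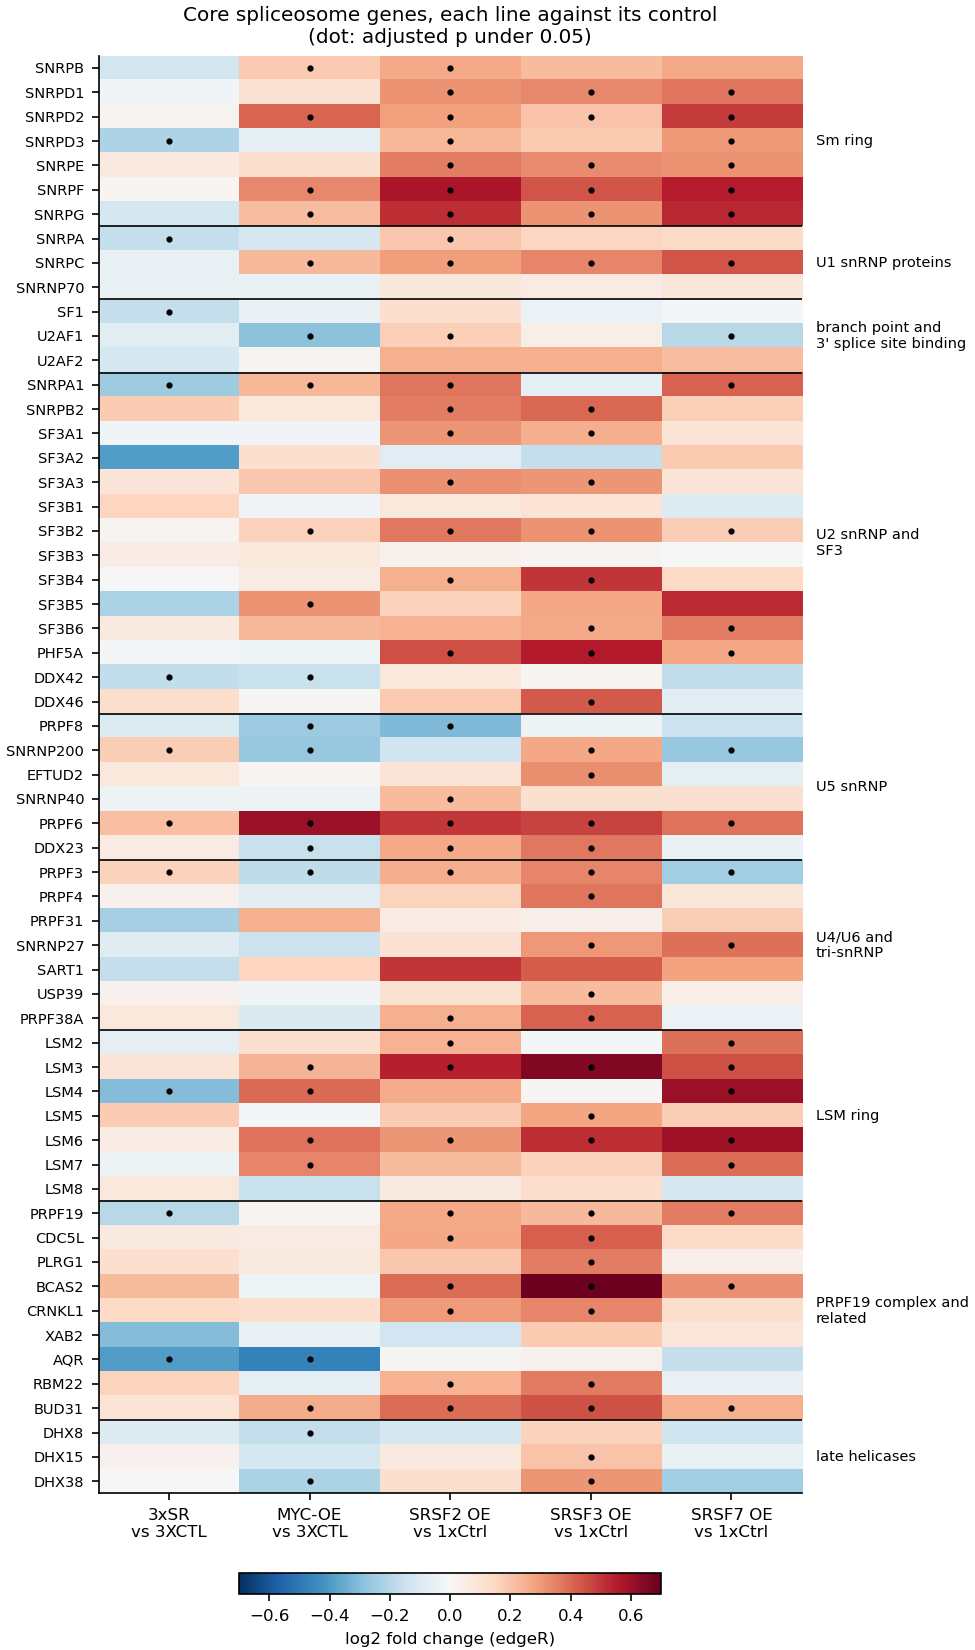
Log2 fold changes (colour scale, edgeR) of the 59 core spliceosome genes in rows, ordered by role, for the 5 comparisons with a control in columns; a dot marks an adjusted p under 0.05. The 3 right-hand columns, which share the 1xCtrl libraries, are mostly red, with 31, 35 and 21 genes called higher, and the left column has 3 called higher and 8 lower.

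The 59 genes together held between 0.585% and 0.610% of all counts in the 1xCtrl libraries. They held from 0.621% to 0.659% in libraries labelled SRSF2 OE, from 0.626% to 0.650% in SRSF3 OE and from 0.615% to 0.630% in SRSF7 OE, so that every library of the single lines was above every 1xCtrl library. In the first table the shares overlapped, at 0.634% to 0.663% in 3XCTL, 0.620% to 0.652% in the libraries labelled 3xSR and 0.621% to 0.637% in MYC-OE. With 3 libraries against 3, the smallest two-sided p of an exact permutation test cannot pass the threshold, so no test was made on these shares.

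**Figure D2:**
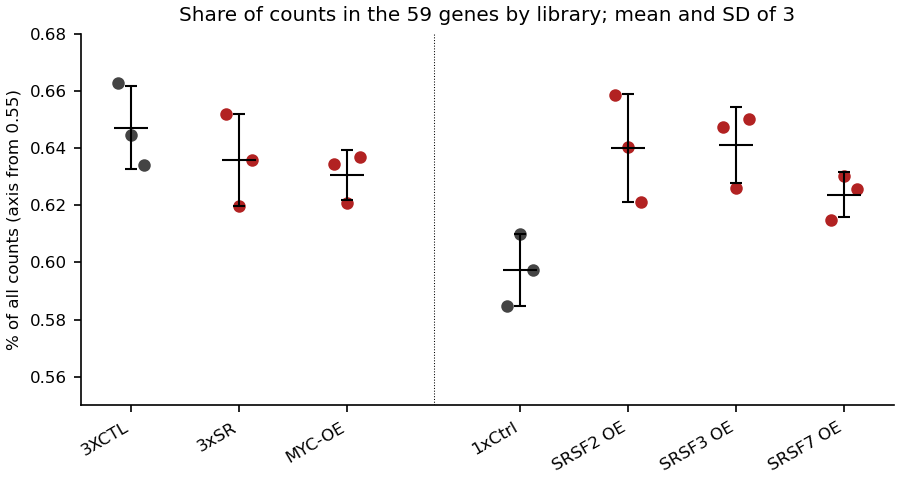
Percent of all counts of a library (vertical axis, starting at 0.55%) that fell on the 59 genes, by group; points are libraries, bars the mean and SD of 3, and the dotted line parts the 2 tables. The 1xCtrl libraries, from 0.585% to 0.610%, lie below all libraries of the single lines.

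Most genes of the Sm ring (SNRPB, SNRPD1, SNRPD2, SNRPD3, SNRPE, SNRPF and SNRPG) rose in 4 of the 5 lines. All 7 of 7 rose in libraries labelled SRSF2 OE, 5 in SRSF3 OE, 6 in SRSF7 OE and 4 in MYC-OE, with none lower in these lines, and median log2 fold changes were 0.31, 0.31, 0.37 and 0.19. Among libraries labelled 3xSR none rose and 1 fell. Of genes in the members' range of CPM, 19.3%, 31.2%, 14.4%, 21% and 19.8% rose in these 5 comparisons, in the same order. Counts for the other roles, from 3 to 14 genes each, are to be read beside these shares and those of all genes given above. SNRPF, one of the proteins of the ring, stood at 43.2, 46.3 and 49.0 CPM in the 1xCtrl libraries, at 69.8, 69.8 and 66.3 in those labelled SRSF2 OE, at 61.3, 63.5 and 63.4 in SRSF3 OE and at 66.4, 69.0 and 67.5 in SRSF7 OE. No 1xCtrl library reached the lowest of the single lines. The log2 fold changes of SNRPF were 0.57 (SE 0.0572, adjusted p = 2.05e-05), 0.44 (SE 0.0571, adjusted p = 8.81e-05) and 0.55 (SE 0.0571, adjusted p = 7.74e-05), and 0.34 (SE 0.0527, adjusted p = 3.63e-04) in MYC-OE, all from edgeR.

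SNRPG, another ring protein, was at 58.3, 53.9 and 61.6 CPM in 1xCtrl, 87.5, 84.4 and 76.9 in libraries labelled SRSF2 OE and 78.5, 88.7 and 83.7 in SRSF7 OE. The 1xCtrl libraries were below both lines, which overlapped each other, and the log2 fold changes were 0.52 (SE 0.0719, adjusted p = 2.55e-04) and 0.53 (SE 0.0719, adjusted p = 5.32e-04) by edgeR. SNRPD2, which forms a dimer with SNRPD1 in the ring, was at 110.1, 109.5 and 111 CPM in 3XCTL, 112, 109 and 113 in the libraries labelled 3xSR and 143, 149.7 and 144 in MYC-OE. The MYC-OE libraries were all above the others, whereas the 3xSR and 3XCTL libraries differed by less than their spread. SNRPD2 had a log2 fold change of 0.40 (SE 0.0436, adjusted p = 2.15e-05) in MYC-OE and of 0.49 (SE 0.0684, adjusted p = 6.57e-04) in SRSF7 OE, where it reached 137, 151 and 136 CPM against 94.1, 100.5 and 107 in 1xCtrl, by edgeR. SNRPD3 fell in the libraries labelled 3xSR, with a log2 fold change of -0.21 (edgeR adjusted p = 0.0161), and rose in those labelled SRSF2 OE and in SRSF7 OE, by 0.23 (adjusted p = 0.0343) and 0.30 (adjusted p = 0.0125). SNRPD3 shares 306 annotated exon bases with GGT1 on the same strand, so part of its counts may come from either gene. The count of Sm ring genes called higher in MYC-OE ran from 2 to 6 over the other analyses tried. SNRPN, a near copy of SNRPB whose reads may be shared with it, fell in MYC-OE by 0.29 (edgeR adjusted p = 5.14e-04) while SNRPB rose by 0.19 (adjusted p = 0.0261), so the level of either is uncertain.

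The LSM ring genes (LSM2, LSM3, LSM4, LSM5, LSM6, LSM7 and LSM8), whose proteins bind the end of U6 RNA, rose for 5 of 7 in SRSF7 OE, 4 in MYC-OE, 3 in SRSF3 OE and 3 in libraries labelled SRSF2 OE. None fell there, and 1 fell in the libraries labelled 3xSR. LSM4 was the one that fell, and it was among the most changed members. Its gene lies on chromosome 19 from 18306230 to 18323274 on the minus strand (GRCh38). LSM4 was at 60.8, 55.8 and 59.4 CPM in 3XCTL, 48.0, 47.0 and 47.6 in the libraries labelled 3xSR and 74.7, 77.3 and 79.6 in MYC-OE. The 3 groups did not overlap, with 3xSR lowest and MYC-OE highest. By edgeR the log2 fold change was -0.30 (SE 0.0502, adjusted p = 7.66e-04) in the libraries labelled 3xSR and 0.40 (SE 0.0501, adjusted p = 7.73e-05) in MYC-OE, and MYC-OE exceeded 3xSR by 0.70 (SE 0.0503, adjusted p = 2.23e-06).

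In the second table LSM4 was at 37.7, 52.2 and 40.4 CPM in 1xCtrl, 50.5, 53.8 and 51.5 in libraries labelled SRSF2 OE, 43.3, 40.7 and 47.2 in SRSF3 OE, with 60.7, 65.5 and 71.8 in SRSF7 OE. The SRSF7 OE libraries were above all others, and 1xCtrl replicate 2 stood above its 2 partners. LSM4 rose in SRSF7 OE by 0.60 (SE 0.108, adjusted p = 0.00247) and exceeded SRSF3 OE there by 0.59 (SE 0.108, adjusted p = 8.15e-04) by edgeR. LSM6 was at 13.0, 14.5 and 13.5 CPM in 1xCtrl, 16.4, 17.5 and 16.8 in libraries labelled SRSF2 OE and 18.0, 21.4 and 22.5 in SRSF7 OE, with a log2 fold change of 0.59 (SE 0.0868, adjusted p = 8.64e-04) in SRSF7 OE. These groups of LSM6 values did not overlap, and LSM6 was also called higher in SRSF3 OE, whose values are not listed here. LSM3 was at 26.7, 26.8 and 34.8 CPM in 1xCtrl, 44.3, 44.3 and 40.1 in libraries labelled SRSF2 OE and 48.3, 40.8 and 49.1 in SRSF3 OE. Both lines were above all 1xCtrl libraries and overlapped each other. LSM3 rose by 0.54 (SE 0.105, adjusted p = 0.00236) and 0.65 (SE 0.105, adjusted p = 4.88e-04) by edgeR. LSM8, the subunit that sets the nuclear ring apart from the cytoplasmic one, was called in no comparison with a control.

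Among the U1 proteins (SNRPA, SNRPC and SNRNP70), which help to hold the 5' splice site, SNRPC rose in 4 lines. Its log2 fold changes were 0.23 in MYC-OE (edgeR adjusted p = 0.00360), 0.29 in libraries labelled SRSF2 OE (adjusted p = 0.00553), 0.34 in SRSF3 OE (adjusted p = 0.00139) and 0.44 in SRSF7 OE (adjusted p = 9.07e-04). Among libraries labelled 3xSR it was -0.05 (adjusted p = 0.476). SNRPA fell in the libraries labelled 3xSR by 0.17 (adjusted p = 0.0325) and rose in those labelled SRSF2 OE by 0.19 (adjusted p = 0.0464). Both calls were lost after removal of the GC trend, with edgeR adjusted p = 0.905 and adjusted p = 0.0749. SNRNP70 was called in no comparison with a control.

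Of the proteins that mark the branch point and the 3' splice site, U2AF1 reads the AG at the intron end, U2AF2 the tract before it and SF1 the branch point. U2AF1 was at 65.2, 69.0 and 67.5 CPM in 3XCTL and 54.0, 54.8 and 56.2 in MYC-OE, and the groups did not overlap. It fell by 0.29 (SE 0.0475, edgeR adjusted p = 5.26e-04). In 1xCtrl it was at 65.3, 62.1 and 65.9 CPM, in libraries labelled SRSF2 OE at 70.4, 74.6 and 72.2 and in SRSF7 OE at 55.2, 58.2 and 55.5. Libraries labelled SRSF2 OE were all above, and the SRSF7 OE libraries all below, the controls. By edgeR the log2 fold changes of U2AF1 were 0.17 (SE 0.0537, adjusted p = 0.0374) and -0.20 (SE 0.0537, adjusted p = 0.0242), and SRSF7 OE set against libraries labelled SRSF2 OE gave -0.36 (SE 0.0538, adjusted p = 3.68e-04). Fitted on its 2 groups alone, the fall of U2AF1 in SRSF7 OE had an edgeR adjusted p = 0.0818. SF1 fell in the libraries labelled 3xSR by 0.17 (edgeR adjusted p = 0.0309), a call that was lost after removal of the GC trend (adjusted p = 0.622, edgeR). U2AF2 was called in no comparison with a control. U2AF1L5, a near-identical copy of U2AF1, was looked up by symbol but not matched. Whether reads of U2AF1 are shared with it is not known, so the level of U2AF1 is uncertain.

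The U2 snRNP and SF3 group has 14 genes. Of these 8 rose in SRSF3 OE, 7 in libraries labelled SRSF2 OE, 4 in SRSF7 OE and 3 in MYC-OE, while 2 fell in the libraries labelled 3xSR and 1 in MYC-OE. SF3B2, an SF3B scaffold protein, and PHF5A, a small protein of the SF3B branch point pocket, rose in all 3 single lines. PHF5A was at 34.9, 31.8 and 35.9 CPM in 1xCtrl, 47.7, 46.3 and 46.4 in libraries labelled SRSF2 OE, 50.2, 49.4 and 50.9 in SRSF3 OE, with 39.1, 44.5 and 40.2 in SRSF7 OE. Each single line lay above the controls without overlap. The log2 fold changes of PHF5A were 0.45 (SE 0.0643, adjusted p = 2.96e-04), 0.55 (SE 0.0643, adjusted p = 3.94e-05) and 0.27 (SE 0.0642, adjusted p = 0.0116) by edgeR. SF3B1, an SF3B protein whose gene is mutated in several cancers, and SF3B3 were called in no comparison with a control. The log2 fold changes of SF3B1 lay between -0.10 in SRSF7 OE and 0.15 in the libraries labelled 3xSR.

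SNRPA1, a protein of the U2 particle, moved in both directions. It was at 67.7, 74.2 and 67.5 CPM in 3XCTL, 62.0, 56.9 and 57.7 in the libraries labelled 3xSR and 81.9, 78.9 and 84.9 in MYC-OE. The 3xSR libraries were all below and the MYC-OE libraries all above the controls. By edgeR SNRPA1 had log2 fold changes of -0.25 (SE 0.0574, adjusted p = 0.00689) and 0.23 (SE 0.0573, adjusted p = 0.00789). In 1xCtrl it was at 51.0, 50.5 and 58.1 CPM, in libraries labelled SRSF2 OE at 68.3, 71.7 and 66.7, in SRSF3 OE at 52.4, 49.9 and 50.8 and in SRSF7 OE at 71.0, 69.8 and 71.6. The SRSF3 OE libraries overlapped the controls while the other lines were above them. SNRPA1 rose by 0.37 (SE 0.0618, adjusted p = 8.60e-04) and 0.41 (SE 0.0618, adjusted p = 0.00103), and SRSF7 OE exceeded SRSF3 OE by 0.47 (SE 0.0619, adjusted p = 6.41e-05), by edgeR.

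SF3B5, a small SF3B subunit, was at 22.8, 25.8 and 21.1 CPM in the libraries labelled 3xSR and 33.0, 35.0 and 33.1 in MYC-OE, and these groups did not overlap. MYC-OE exceeded 3xSR by 0.54 (SE 0.0959, adjusted p = 0.00122) by edgeR. DDX42, a helicase that binds SF3B1, fell in the libraries labelled 3xSR by 0.17 (edgeR adjusted p = 0.0191) and in MYC-OE by 0.15 (adjusted p = 0.0267). SF3A2, an SF3A subunit, was at 17.7, 39.5 and 12.5 CPM in 1xCtrl, with replicate 2 far above its partners, and its log2 fold changes against 1xCtrl had standard errors between 0.395 and 0.396. XAB2 of the PRPF19-related group, at 27.7, 54.7 and 22.0 CPM, and SART1 of the tri-snRNP, at 37.4, 62.4 and 30.8 CPM, had the same high library. None of these 3 genes was called against either control.

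**Figure D3:**
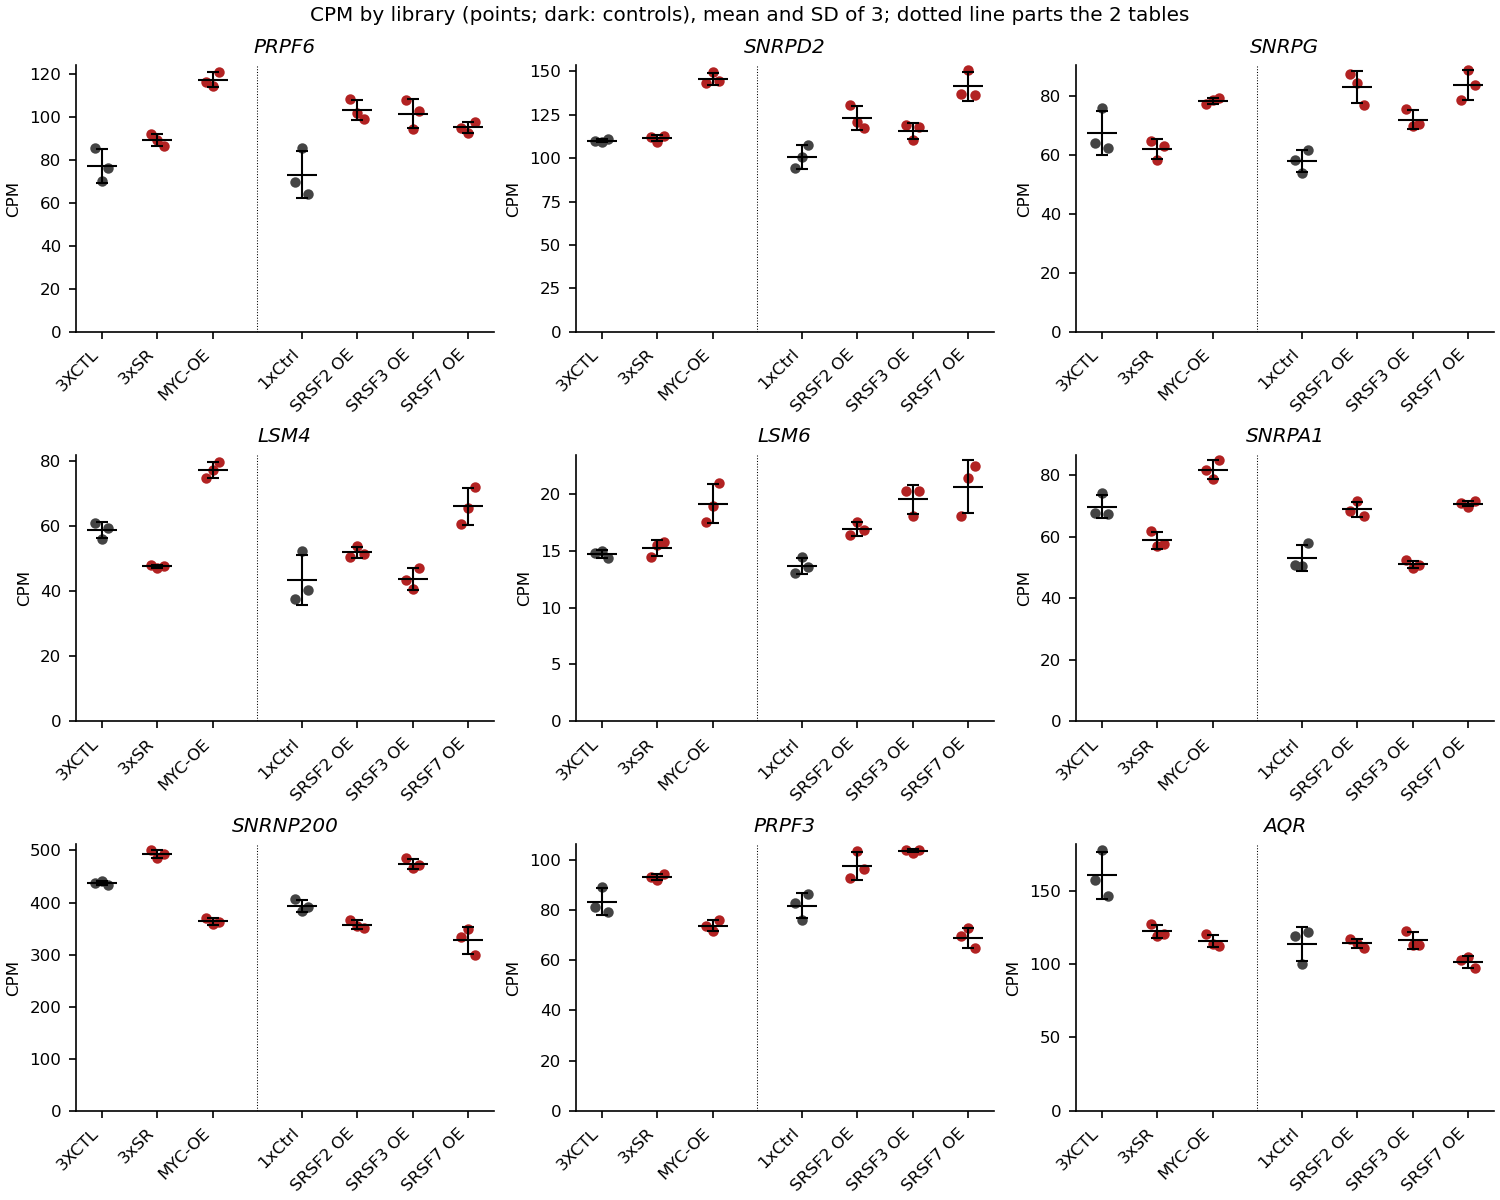
CPM per library (vertical axis from 0) of 9 members in the 7 groups; points are libraries, dark for controls, bars the mean and SD of 3, and the dotted line parts the 2 tables, which were scaled separately. PRPF6 lies above its control in all 5 lines, while SNRNP200 and PRPF3 lie above in some lines and below in others.

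The U5 group holds the large proteins at the heart of the tri-snRNP, and counts of higher and lower genes among its 6 were 2 and 0 in the libraries labelled 3xSR, 1 and 3 in MYC-OE, 3 and 1 in libraries labelled SRSF2 OE, 4 and 0 in SRSF3 OE, with 1 and 1 in SRSF7 OE. PRPF6, which bridges U5 to U4/U6, lies on chromosome 20 from 63981135 to 64033100 on the plus strand, and SNRNP200, the helicase that unwinds U4 from U6, on chromosome 2 from 96274336 to 96305515 on the minus strand (GRCh38). The 250 bases before their RefSeq start sites (GRCh38.p14) are shown with SF3B5, which rose in MYC-OE, because a factor's motif can be read in them. They are chr20:63980882-63981131 on the plus strand, chr2:96305547-96305796 on the minus strand and chr6:144095574-144095823 on the minus strand, 5' to 3', and capitals mark the letters CCGGAAG or CTTCCGG, the core bound by ETS factors. The E-box CACGTG, a motif bound by MYC, was searched as well and is in none of the 3.
PRPF6: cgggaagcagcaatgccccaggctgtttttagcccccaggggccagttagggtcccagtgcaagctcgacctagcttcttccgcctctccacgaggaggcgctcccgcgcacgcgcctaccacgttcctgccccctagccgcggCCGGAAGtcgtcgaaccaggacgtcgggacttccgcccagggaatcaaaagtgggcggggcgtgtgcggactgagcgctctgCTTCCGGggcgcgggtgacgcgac
SNRNP200: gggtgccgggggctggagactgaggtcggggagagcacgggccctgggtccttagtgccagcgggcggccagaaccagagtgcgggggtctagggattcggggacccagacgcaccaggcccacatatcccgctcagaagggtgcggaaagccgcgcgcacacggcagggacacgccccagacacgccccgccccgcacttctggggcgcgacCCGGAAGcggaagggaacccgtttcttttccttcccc
SF3B5: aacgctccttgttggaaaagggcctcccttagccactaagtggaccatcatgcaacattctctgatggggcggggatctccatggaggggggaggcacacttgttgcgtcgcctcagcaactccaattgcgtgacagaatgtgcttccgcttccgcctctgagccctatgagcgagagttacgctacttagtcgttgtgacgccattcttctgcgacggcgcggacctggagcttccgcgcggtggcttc

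PRPF6 was the one member called in all 5 comparisons with a control, each time higher. It was at 85.4, 70.0 and 76.2 CPM in 3XCTL, 92.1, 89.4 and 86.3 in the libraries labelled 3xSR and 117, 115 and 121 in MYC-OE. The groups did not overlap and MYC-OE was highest. The edgeR log2 fold changes of PRPF6 were 0.21 (SE 0.0672, adjusted p = 0.0352) and 0.61 (SE 0.0674, adjusted p = 2.77e-05), the latter a 1.52-fold difference. In 1xCtrl it was at 69.7, 85.5 and 64.2 CPM, in libraries labelled SRSF2 OE at 108, 102 and 99.2, in SRSF3 OE at 108, 94.5 and 103 and in SRSF7 OE at 95.1, 92.8 and 97.9. All single-line libraries were above the highest control. PRPF6 rose by 0.50 (SE 0.0909, adjusted p = 0.00169), 0.47 (SE 0.0909, adjusted p = 0.00154) and 0.38 (SE 0.0908, adjusted p = 0.0120) by edgeR. The call in the libraries labelled 3xSR was lost in 8 of 15 other analyses, with an edgeR adjusted p of up to 0.116.

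SNRNP200 was at 438, 441 and 434 CPM in 3XCTL, 502, 485 and 493 in the libraries labelled 3xSR and 371, 358 and 363 in MYC-OE. All 3xSR libraries were above and all MYC-OE libraries below the controls. By edgeR the log2 fold changes of SNRNP200 were 0.17 (SE 0.0424, adjusted p = 0.00937) and -0.27 (SE 0.0425, adjusted p = 4.31e-04), and MYC-OE set against 3xSR gave -0.44 (SE 0.0425, adjusted p = 1.86e-05). In 1xCtrl it was at 406, 383 and 392 CPM, in libraries labelled SRSF2 OE at 367, 355 and 351, in SRSF3 OE at 485, 466 and 471 and in SRSF7 OE at 333, 349 and 299.7. SRSF3 OE was above and SRSF7 OE below the controls, with no overlap. SNRNP200 rose in SRSF3 OE by 0.27 (SE 0.0615, adjusted p = 0.00508) and had a log2 fold change of -0.27 (SE 0.0615, adjusted p = 0.0101) in SRSF7 OE by edgeR. The SRSF7 OE call did not hold in the fit on its 2 groups alone (edgeR adjusted p = 0.0543). Among libraries labelled SRSF2 OE, all below the controls, it was -0.14 (SE 0.0615, adjusted p = 0.124) and not called.

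PRPF8, the scaffold that holds the catalytic RNAs, was the one member that fell in libraries labelled SRSF2 OE. It was at 238, 223 and 213 CPM in 1xCtrl and 192, 177 and 175 in those libraries, without overlap. PRPF8 fell there by 0.31 (SE 0.0736, adjusted p = 0.00815) and in MYC-OE by 0.25 (SE 0.0428, adjusted p = 6.90e-04) by edgeR. EFTUD2, the U5 GTPase, rose in SRSF3 OE by 0.33 (edgeR adjusted p = 0.00153) and was not called against a control elsewhere. DDX23, a helicase that helps U1 leave the 5' splice site, fell in MYC-OE by 0.15 (adjusted p = 0.0155) and rose in libraries labelled SRSF2 OE by 0.27 (adjusted p = 0.00439) and in SRSF3 OE by 0.37 (adjusted p = 3.15e-04).

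Of the 7 U4/U6 and tri-snRNP genes 5 rose in SRSF3 OE, 2 in libraries labelled SRSF2 OE and 1 in those labelled 3xSR, 1 rose and 1 fell in SRSF7 OE, and 1 fell in MYC-OE. PRPF3, a U4/U6 protein, was at 81.4, 89.3 and 79.3 CPM in 3XCTL, 93.2, 92.1 and 94.4 in the libraries labelled 3xSR and 73.5, 71.6 and 75.9 in MYC-OE. The 3xSR libraries were above and the MYC-OE libraries below the controls. PRPF3 had log2 fold changes of 0.16 (SE 0.0541, adjusted p = 0.0415) and -0.18 (SE 0.0541, adjusted p = 0.0229) by edgeR, and MYC-OE set against 3xSR gave -0.34 (SE 0.0541, adjusted p = 5.45e-04). In 1xCtrl it was at 83.0, 76.2 and 86.3 CPM, in libraries labelled SRSF2 OE at 92.8, 104 and 96.5, in SRSF3 OE at 104, 103 and 104 and in SRSF7 OE at 69.5, 72.8 and 64.9. Libraries labelled SRSF2 OE and SRSF3 OE were above and SRSF7 OE below the controls. By edgeR PRPF3 changed by 0.25 (SE 0.0653, adjusted p = 0.0126), 0.34 (SE 0.0653, adjusted p = 0.00153) and -0.24 (SE 0.0653, adjusted p = 0.0212), and SRSF7 OE set against SRSF3 OE gave -0.59 (SE 0.0654, adjusted p = 1.81e-05). The PRPF3 call in the libraries labelled 3xSR was lost in 10 of 15 other analyses (edgeR adjusted p of up to 0.152), and that in SRSF7 OE in the fit on its 2 groups alone (adjusted p = 0.0709, edgeR).

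Of the 9 genes of the PRPF19 complex and its partners, which stabilise the active spliceosome, 7 rose in SRSF3 OE, 6 in libraries labelled SRSF2 OE and 3 in SRSF7 OE, and none fell there. Among libraries labelled 3xSR none rose and 2 fell, and in MYC-OE 1 rose and 1 fell. BCAS2, a core protein of the complex, was at 23.3, 21.3 and 26.5 CPM in 1xCtrl, 33.0, 31.2 and 29.1 in libraries labelled SRSF2 OE and 39.4, 36.6 and 38.5 in SRSF3 OE. These groups did not overlap, with SRSF3 OE highest and above libraries labelled SRSF2 OE by 0.29 (SE 0.0789, adjusted p = 0.0143). Against 1xCtrl the log2 fold change of 0.69 (SE 0.0793, adjusted p = 3.74e-05) in SRSF3 OE by edgeR was the largest called for any member against a control. PRPF19 itself, a ubiquitin ligase, rose in each single line, by 0.26, 0.23 and 0.36 (edgeR adjusted p = 0.0210, 0.0376 and 0.00607 for libraries labelled SRSF2 OE, then SRSF3 OE and SRSF7 OE) and fell in the libraries labelled 3xSR by 0.19 (adjusted p = 0.00991). The last call was lost after removal of the GC trend (edgeR adjusted p = 0.170).

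AQR, an intron-binding helicase, was the member that fell most. Its gene lies on chromosome 15 from 34851782 to 34969839 on the minus strand (GRCh38). AQR was at 157, 178 and 147 CPM in 3XCTL, 127, 119 and 120.4 in the libraries labelled 3xSR and 120.4, 114 and 113 in MYC-OE. The controls were above both lines without overlap, and 3XCTL replicate 2 was the highest of them. By edgeR AQR changed by -0.39 (SE 0.0676, adjusted p = 0.00101) and -0.47 (SE 0.0676, adjusted p = 1.91e-04). Over the other analyses tried, including that without 3XCTL replicate 2, the fall in the libraries labelled 3xSR lay between log2 fold changes of -0.50 and -0.31, and in MYC-OE between -0.53 and -0.39. In the second table AQR was at 119, 100.5 and 122 CPM in 1xCtrl, and no single line was called against it. CPM from the 2 tables, which were scaled separately, were not compared by a test.

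The late helicases DHX8, DHX15 and DHX38 release mRNA, take apart the lariat complex and remodel the active site before exon ligation. In MYC-OE 2 of 3 fell, DHX8 by 0.17 (edgeR adjusted p = 0.0180) and DHX38 by 0.22 (adjusted p = 0.0209). In SRSF3 OE 2 rose, DHX15 by 0.20 (adjusted p = 0.0469) and DHX38 by 0.31 (adjusted p = 0.0131). DHX38 was at 102, 113 and 113 CPM in SRSF3 OE, with 74.6, 75.9 and 74.7 in SRSF7 OE, without overlap. SRSF7 OE set against SRSF3 OE gave a log2 fold change of -0.54 (SE 0.0831, adjusted p = 2.20e-04) by edgeR, and all 3 genes were called lower in that comparison.

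**Figure D4:**
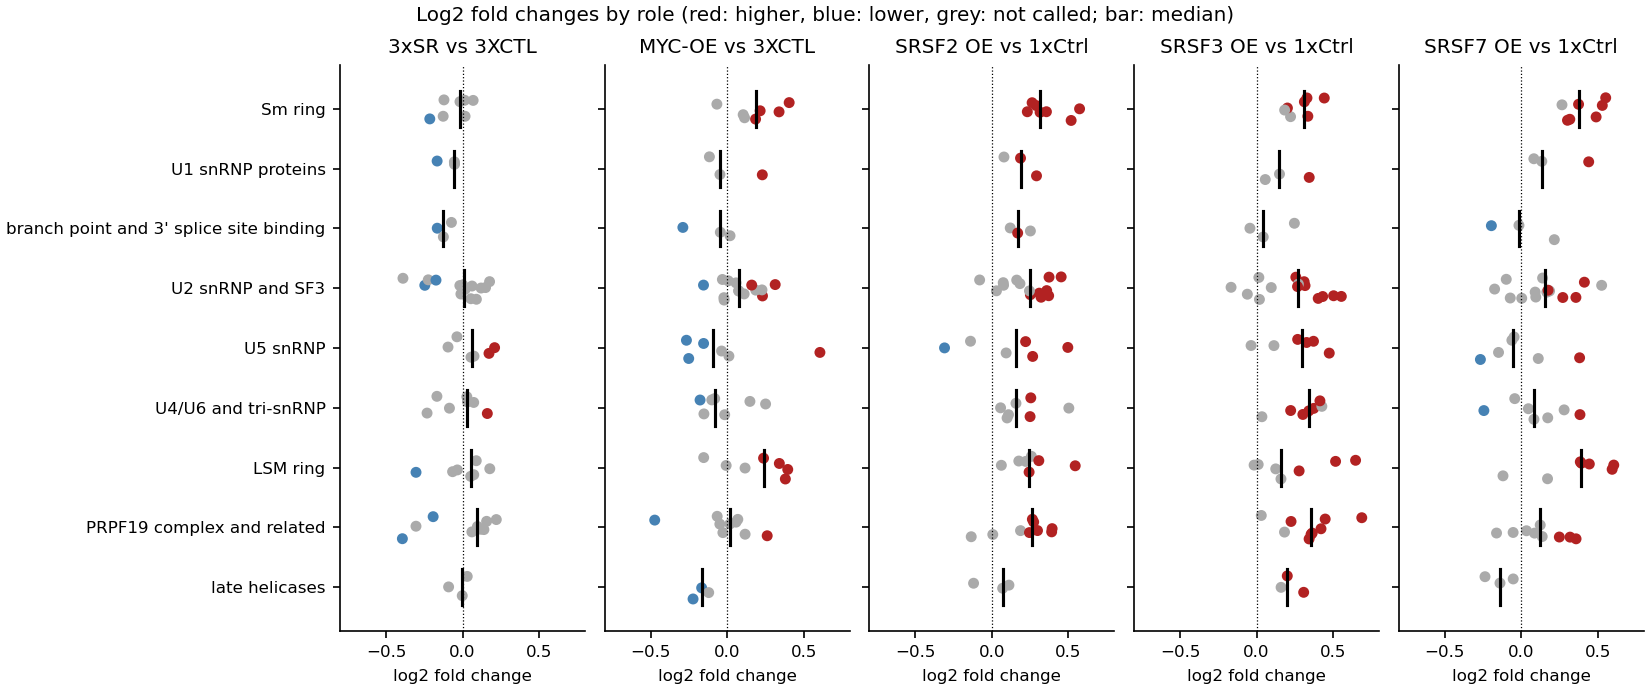
Log2 fold change (horizontal axis) of each of the 59 genes by role, in 1 panel per comparison with a control; red points were called higher, blue lower and grey not called, and bars are medians of a role. Sm ring genes lie to the right of 0 in the single lines and U5 genes lie on both sides of it in every panel.

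Of the 59 members 10 were called higher in one line and lower in another. They were SNRNP200, PRPF3, U2AF1, SNRPA1, LSM4, SNRPD3, SNRPA, PRPF19, DDX23 and DHX38. Another 9, SNRNP70, U2AF2, SF3A2, SF3B1, SF3B3, PRPF31, SART1, LSM8 and XAB2, were called in no comparison with a control. How many of all genes had opposite calls, no call or a call in all 5 comparisons was not counted. These counts of members therefore have no background beside them. Between lines of the 2 tables, 2.32% to 15.2% of all genes called in 1 direction in the first were called oppositely in the second. Direct comparisons between lines were made within each table. MYC-OE was above 3xSR for 14 members and below it for 11, where 17.3% and 17.6% of all genes and 22.2% and 28% of genes in the members' range of CPM were. The higher ones included 4 of 7 Sm and 4 of 7 LSM genes, and the lower ones 3 of 6 U5 genes. The slopes on GC content had opposite signs in MYC-OE and 3xSR. With each library's GC trend removed, 18 of the member calls between these lines held and 7 were lost. The counts became 19 higher and 11 lower. The part of GC content in these differences was not tested. SRSF3 OE was above libraries labelled SRSF2 OE for 9 members and below for 3, against 14.1% and 12.6% of all genes and 27.2% and 10.8% of genes in the members' range of CPM, so the members' share of higher calls was near the first background and under the second. SNRPA1, lower in SRSF3 OE, differed most, with a log2 fold change of -0.43 (SE 0.0619, adjusted p = 2.36e-04), followed by SNRNP200, higher there, with 0.41 (SE 0.0616, adjusted p = 3.66e-04), by edgeR. The split was 1 higher and 7 lower with upper-quartile scaling and 6 and 7 with total counts, so its direction over the members depended on the scaling. With each library's GC trend removed it was 9 and 11. The slopes on GC content also differed between these lines, and the part of GC content was not tested here either.

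SRSF7 OE was above SRSF3 OE for 5 members and below it for 24, where 17.3% and 17.8% of all genes and 15.3% and 33% of genes in the members' range of CPM were. The lower ones included 8 of 14 U2 and SF3 genes and 5 of 9 PRPF19-related genes, and the higher ones were SNRPD2, SNRPG, SNRPA1, LSM2 and LSM4. By transcript length, split as described below, 18 of the 24 lower members and 0 of the 5 higher ones were in the longer part. With total counts alone the split was 9 higher and 13 lower. LSM2, a U6 ring protein, was at 29.8, 28.2 and 27.0 CPM in SRSF3 OE against 34.7, 39.9 and 37.8 in SRSF7 OE and 34.5, 31.7 and 35.5 in libraries labelled SRSF2 OE. SRSF3 OE lay below both. SRSF7 OE exceeded it by 0.40 (SE 0.0759, adjusted p = 0.00109), and SRSF3 OE set against libraries labelled SRSF2 OE gave -0.26 (SE 0.0759, adjusted p = 0.0221), by edgeR. SRSF7 OE was above libraries labelled SRSF2 OE for 4 members and below for 11, against 12.8% and 11.5% of all genes and 16.9% and 17% of genes in the members' range of CPM. PRPF3 was lower in SRSF7 OE, with a log2 fold change of -0.50 (SE 0.0654, adjusted p = 1.55e-04) by edgeR. LSM4 and LSM6 were higher by 0.35 and 0.29 (edgeR adjusted p = 0.0320 and 0.0278), calls that did not hold without any one library of either line for LSM4 (adjusted p from 0.0784 to 0.189) and without 5 of the 6 for LSM6.

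The comparisons of the 2 tables share no library, so the calls were set side by side, beside those of all genes tested in both tables. Of the 14 members higher in MYC-OE, 12 rose in SRSF7 OE too, which is 85.7% of the 14 and 57.1% of the 21 there. With libraries labelled SRSF2 OE 11 were shared, or 78.6% of the 14 and 35.5% of the 31, and with SRSF3 OE 9, or 64.3% of the 14 and 25.7% of the 35. Over all genes the calls shared with SRSF7 OE were 31.5% of those higher in MYC-OE and 59.7% of those higher in SRSF7 OE, the calls shared with libraries labelled SRSF2 OE 29.1% and 43%, and those shared with SRSF3 OE 29.5% and 33.6%. Of the 9 members lower in MYC-OE 3 fell in SRSF7 OE, 1 fell and 3 rose in libraries labelled SRSF2 OE, and 0 fell and 4 rose in SRSF3 OE. Of all genes lower in MYC-OE, 28.8% fell and 2.32% rose in SRSF7 OE. The shares were 30.1% and 5.87% in libraries labelled SRSF2 OE, and 26.9% and 13.6% in SRSF3 OE. Of the 3 members higher in the libraries labelled 3xSR, 3 rose in SRSF3 OE, 2 in libraries labelled SRSF2 OE and 1 in SRSF7 OE, where the other 2 fell. Of all genes higher in the libraries labelled 3xSR, 41.8% rose and 8.35% fell in SRSF3 OE. The shares were 27.2% and 15.2% in libraries labelled SRSF2 OE, and 17.1% and 12.8% in SRSF7 OE. Of the 8 members lower in the libraries labelled 3xSR none fell in a single line. Of these, 4 rose in libraries labelled SRSF2 OE, 4 in SRSF7 OE and 1 in SRSF3 OE. Of all genes lower in the libraries labelled 3xSR, 24.7% fell and 8.35% rose in libraries labelled SRSF2 OE. The shares were 11% and 13% in SRSF7 OE, and 41.9% and 4.54% in SRSF3 OE.

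Other genes of the pathway were counted from lists of 26 further factors of the major spliceosome, 11 of the minor spliceosome, 8 of the exon junction complex and 18 of snRNP assembly. Of the 26 further factors 12 rose in libraries labelled SRSF2 OE, 12 in SRSF3 OE, 4 in SRSF7 OE, 4 in MYC-OE and 5 in the libraries labelled 3xSR, and 2, 0, 2, 3 and 2 fell. ISY1, a partner of the PRPF19 complex, had the highest called change of these factors in all 5 comparisons, from 0.33 in the libraries labelled 3xSR (edgeR adjusted p = 0.0206) to 0.62 in SRSF3 OE (adjusted p = 0.00131). The shares of all genes called are those given for each comparison above. In the minor spliceosome, which removes a rare class of introns, 5 of 11 rose and 2 fell in libraries labelled SRSF2 OE, 2 rose and 0 fell in SRSF3 OE, 1 rose and 3 fell in SRSF7 OE, 0 rose and 3 fell in MYC-OE, and 0 rose and 2 fell in the libraries labelled 3xSR. ARMC7 fell in MYC-OE by 0.90 (edgeR adjusted p = 7.04e-07) and in the libraries labelled 3xSR by 0.57 (adjusted p = 4.04e-05). Of the 8 exon junction complex genes, whose proteins mark spliced mRNA, 4 rose in libraries labelled SRSF2 OE and 0 fell, 3 rose and 1 fell in SRSF7 OE, 1 rose and 3 fell in MYC-OE, and 0 rose and 1 fell in the libraries labelled 3xSR. In SRSF3 OE 7 rose and 0 fell, with RBM8A highest at 0.49 (adjusted p = 6.89e-05, edgeR). EIF4A3, the helicase at the centre of the exon junction complex, fell in MYC-OE by 0.49 (adjusted p = 2.30e-05, edgeR) and in the libraries labelled 3xSR by 0.23 (adjusted p = 0.00718). Of the 18 assembly genes 9 rose and 1 fell in libraries labelled SRSF2 OE, 4 rose and 1 fell in SRSF7 OE, 3 rose and 2 fell in MYC-OE, 1 rose and 1 fell in the libraries labelled 3xSR, and 11 rose and 1 fell in SRSF3 OE. PHAX, which exports new U snRNAs, rose in SRSF3 OE by 0.65 (edgeR adjusted p = 8.95e-05), and SNUPN, which brings finished snRNPs back to the nucleus, rose by 0.41 in MYC-OE (adjusted p = 3.58e-04) and 0.61 in SRSF7 OE (adjusted p = 7.16e-05) and fell by 0.24 in the libraries labelled 3xSR (adjusted p = 0.0147).

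Promoters of the 250 bases before the start site were listed for 54 of the 59 members in RefSeq (GRCh38.p14). The E-box CACGTG was in 2 of them, SF3B1 and EFTUD2, or 3.70%, beside 6.49% of 27305 promoters of that length, and neither gene was called in MYC-OE. The ETS core CCGGAAG was in 28, or 51.9%, beside 8.82%, counted on both strands. CCAAT was in 38.9% beside 33.0% and TATAAA in 1.85% beside 11.1%, also on both strands. The ETS core was in 8 of the 13 members with an entry that rose in MYC-OE, in 5 of the 8 that fell and in 15 of the 33 not called. Such matches describe letters and are not binding sites. Annotated exons of any gene also cover part or all of many of these windows. They cover 250 of 250 bases for SF3B2, 244 for SNRPE and 0 for SNRNP200. The 27305 promoters were not limited to expressed genes, so the shares are not matched for expression.

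Members also differed in transcript length. Split at the median of the longest annotated transcript, 2433 bases, 11 of the 30 shorter members rose and 2 fell in MYC-OE, while 3 of the 29 longer ones rose and 7 fell. In SRSF7 OE 17 of the shorter rose and 2 fell, and 4 of the longer rose and 1 fell. In SRSF3 OE the parts had 17 and 18 higher and none lower. For SRSF7 OE against SRSF3 OE, 5 of the shorter rose and 6 fell, and 0 of the longer rose and 18 fell. Across the 59 genes Spearman's rho of log2 fold change with length was -0.660 in SRSF7 OE, -0.445 in MYC-OE, -0.345 in libraries labelled SRSF2 OE, 0.0117 in SRSF3 OE and 0.232 in those labelled 3xSR. Over 8072 genes in the members' range of CPM in the second table, or 8320 in the first, it was -0.369, -0.283, -0.345, -0.0521 and 0.128. Between lines, rho with length was -0.578 over the members and -0.221 over such genes for SRSF7 OE against SRSF3 OE. It was -0.489 and 0.0222 for SRSF7 OE against libraries labelled SRSF2 OE, and 0.4 and 0.292 for SRSF3 OE against the latter. MYC-OE against 3xSR had -0.499 and -0.362. With GC content, rho over the members was 0.0736 in SRSF7 OE, 0.138 in MYC-OE, -0.186 in libraries labelled SRSF2 OE, -0.351 in SRSF3 OE and -0.518 in those labelled 3xSR, beside 0.0951, 0.146, 0.0775, -0.271 and -0.475 over genes of that range. For MYC-OE against 3xSR, rho with GC content was 0.468 over the members and 0.512 over genes of that range. For SRSF3 OE against libraries labelled SRSF2 OE it was -0.237 and -0.39. These are correlations across genes that share their libraries, and genes are not independent replicates. The part of length or GC content in the members' changes was not tested.

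**Figure D5:**
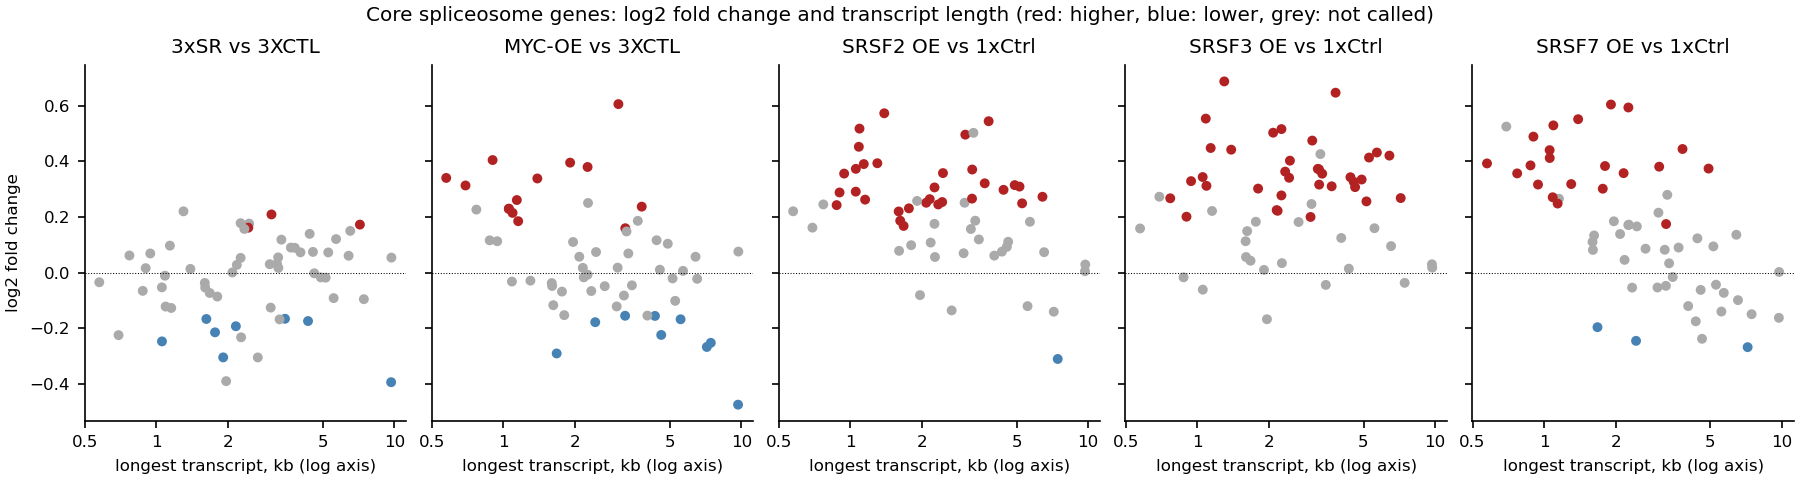
Log2 fold change (vertical axis) of the 59 genes against the length of the longest annotated transcript (horizontal axis, kb, log scale), in 1 panel per comparison with a control; red points were called higher, blue lower and grey not called. In SRSF7 OE, 17 of the 21 genes called higher are shorter than or equal to the median of 2433 bases, while in SRSF3 OE called genes spread over the whole range.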

How the data were processed

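RNA from adherent HCC1806 cells was made into stranded polyA libraries read as 150 base pairs of reads, per the labels' protocols. The deposited values are whole-number counts per gene in 2 tables. The submitters' processing notes name Trimmomatic 0.39, STAR, StringTie 2.1.3b and GRCh38.p13. Which tool counted, with which strand setting and annotation, is not given in the sources used here, and StringTie works from coverage, so the counts may be estimates. Annotated exons (GENCODE 29) of 4 members overlap another gene on their own strand, and those of 20 a gene on the other strand.

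Counts were filtered with filterByExpr (minimum count 10, minimum total 15), scaled by TMM and tested within each table, all groups together, with edgeR 4.0.16 in R 4.3.3 (quasi-likelihood test, Benjamini-Hochberg adjustment over all genes, threshold 0.05). DESeq2 1.42.0 and limma 3.58.1 were alternatives, as were other scalings, no filter, a replicate block, leaving out each library, and removal of GC trends in 50 bins. The code was tested on simulated data. The members and lists were chosen with earlier results of these data known. Every library's values are given, by rule, for the 3 highest and 3 lowest called members without overlap in each comparison with a control and the 2 highest and 2 lowest between lines. Members called in all 5 comparisons with a control, members called in opposite directions, and the highest and lowest called genes of the other lists could also be named. SNRPC, SF3B2, DDX42, EFTUD2, the late helicases and the uncalled members were named after their values were seen.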

Additional observations from a re-analysis of the deposited data

How the results depend on the processing

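Counts of the 59 members called higher and lower were recomputed with other scalings, no filter, DESeq2, limma-voom, each comparison's groups alone, a replicate block, each library left out and, added after seeing the data, each library's GC trend removed. For the 206 calls of a member over the 9 comparisons, 3090 values were recomputed, of which 2583 were still called in the same direction, 507 kept the direction but were no longer called and 0 reversed. Members not called at first are not in these numbers, and some became called, as the counts below show. Counts that moved by over 1.5 times were as follows. In the libraries labelled 3xSR against 3XCTL, 3 higher became 1 with total counts, 1 with no filter, 1 with the groups alone, 6 with DESeq2 and 8 with the GC trend removed. In MYC-OE against 3XCTL, 14 higher became 23 with the GC trend removed and 9 lower became 14 with total counts. Against 1xCtrl, 31 higher in the libraries labelled SRSF2 OE became 17, and 21 in SRSF7 OE became 11, with the groups alone. The 1 lower in the libraries labelled SRSF2 OE became 2 with total counts, no filter, the GC trend removed or the groups alone, the 0 lower in SRSF3 OE became 1 with total counts or the GC trend removed, and the 3 lower in SRSF7 OE became 6 with the GC trend removed and 0 with the groups alone. MYC-OE against 3xSR went from 14 to 23 higher with the groups alone. SRSF3 OE against the libraries labelled SRSF2 OE went from 9 higher to 1 with upper-quartile scaling and 14 with the groups alone, and from 3 lower to 7, 7, 11 and 7 with upper-quartile scaling, total counts, the GC trend removed and the groups alone. SRSF7 OE against the libraries labelled SRSF2 OE went from 4 higher to 7 with the groups alone, and from 11 lower to 25 with the GC trend removed and 17 with the groups alone. SRSF7 OE against SRSF3 OE went from 5 higher to 9 with total counts and 10 with the GC trend removed, and from 24 lower to 13 with total counts. Counts of all genes called moved with the setting as well. With the groups alone, genes higher went from 2823 to 1700 in libraries labelled SRSF2 OE and from 2201 to 1141 in SRSF7 OE. The cause was not tested.

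Leaving out 1 library at a time gave 1 to 13 higher and 5 to 16 lower in the libraries labelled 3xSR, and 8 to 20 higher and 4 to 12 lower in MYC-OE, all 4 maxima without 3XCTL replicate 2. It gave 16 to 37 higher and 1 to 2 lower in the libraries labelled SRSF2 OE, 26 to 39 and 0 to 0 in SRSF3 OE, and 14 to 30 and 3 to 6 in SRSF7 OE, with maxima of higher members without 1xCtrl replicate 2. MYC-OE against 3xSR gave 14 to 15 and 5 to 9, SRSF3 OE against the libraries labelled SRSF2 OE 3 to 9 and 1 to 3, SRSF7 OE against the latter 0 to 2 and 7 to 10, and SRSF7 OE against SRSF3 OE 5 to 5 and 17 to 25. Same-numbered libraries did not deviate together, with a mean correlation of deviations from -0.107 to 0.0118. No pairing by number was seen, though such libraries may still have been handled together. With the replicate block, higher and lower members were 2 and 7 in the libraries labelled 3xSR, 12 and 10 in MYC-OE, 24 and 1 in those labelled SRSF2 OE, 31 and 0 in SRSF3 OE, 18 and 3 in SRSF7 OE, 14 and 10 in MYC-OE against 3xSR, 6 and 2 in SRSF3 OE against the libraries labelled SRSF2 OE, 3 and 11 in SRSF7 OE against the latter, and 4 and 19 in SRSF7 OE against SRSF3 OE.

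With total counts the members' median log2 fold change became -0.02 in MYC-OE and -0.02 in the libraries labelled 3xSR, and fell from 0.27 to 0.16 in SRSF3 OE, where the all-gene median moved to -0.14. On simulated counts of the MYC-OE comparison over 23160 genes, 15.4% of 39 genes at 16 CPM or more with a log2 change of 0.3 were called, and 90.9% of 33 with a change of 1, so an uncalled member may still differ by such small amounts. For SRSF3 OE against 1xCtrl over 24362 genes the shares were 8% of 25 and 95.3% of 43. Only 200 genes were changed in each simulation, far fewer than were called in the data, which makes the adjustment of p stricter. These shares therefore need not hold for the data.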
